A study of Mus musculus with 3 samples.

Results

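The cells described here were adult Cxcl12-abundant reticular cells, the stromal cells of mouse bone marrow (BM) that carried most of the transcripts for the chemokine Cxcl12 and for stem cell factor (SCF, encoded by Kitl) in 1 library of targeted single cell RNA sequencing. Members were chosen by their own measured values of 5 targets. A cell was a member if Cxcl12 made up at least 15% of its molecules, if it had at least 5 molecules of Kitl and no molecule of the leukocyte gene Ptprc, and if the endothelial genes Pecam1 and Kdr together stayed under 5 molecules. Of the 7948 cells of the adult library, all of which had at least 20 molecules, 2253 met this rule, or 28.3% (95% exact binomial interval 27.4% to 29.4%). They were 2253 of the 24875 cells of the whole series and 50.7% of the 4440 adult stromal cells, meaning cells without Ptprc and with fewer than 5 molecules of Pecam1 and Kdr. The other 2187 stromal cells served as the comparison.

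Reticular cells lie around the sinusoidal vessels of the marrow, reach into the haematopoietic tissue with long processes, and are known as the main source of Cxcl12, which retains haematopoietic stem and progenitor cells (HSPCs) in the marrow, and of SCF, which maintains them through the receptor c-Kit. Most of them express the leptin receptor (Lepr), and the same population gives rise to adipocytes and osteoblasts of adult bone. Wnt proteins leave a cell with the help of the carrier Wls and bind Frizzled (Fzd) receptors on the receiving cell, and R-spondins strengthen the response through the receptors Lgr4, Lgr5 and Lgr6.

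The series asked which cells of fetal and adult marrow carry components of Wnt signalling. Adult BM cells is a library of marrow from adult wild-type C57/B6 mice after depletion of lineage-positive blood cells, with 4 animals pooled per the study's methods. E18.5 BM cells was prepared from marrow of wild-type C57/B6 E18.5 embryos after lineage depletion, and E18.5 EC holds endothelial cells (ECs) sorted from such embryos, with 8 embryos pooled for each. Sex and adult age are not given in the labels. Each group is 1 library, so there was no replicate and no test between groups, and every interval below covers counting error only. Stage, preparation and depth cannot be told apart between the libraries, and the methods describe a further depletion with CD117 and CD45 antibodies for other adult libraries without saying whether it was used here.

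The adult library held 6304495 molecules with a median of 242 per cell, against a median of 83 for the embryonic EC library and of 96 for embryonic marrow. The libraries shared between 38 and 113 cell barcodes, and 45 of the members carried a barcode that also occurred in an E18.5 library. Members had a median of 401 molecules (quartiles 297 and 558) on 24 targets, and the other stromal cells had a median of 574.

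The targets of the rule describe the members and test nothing. Cxcl12 (transcript at chr6:117168574-117181366, plus strand, GRCm38) made up 57.4% of all their molecules, with a median of 59.2% per cell and a range from 15.3% to 82.8%. Kitl (chr10:100015630-100100416, plus strand) had a median of 18 molecules per cell and a range from 5 to 98. Kitl was read with 2 amplicons whose counts agreed within 1 molecule in 74.7% of members (22728 and 24132 molecules), so both appear to count the same molecules and intervals on their sum are too narrow. Together the members held 85.9% of the library's Cxcl12 and 78.3% of its Kitl molecules.

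The Cxcl12 threshold fell where few cells lay, whereas the Kitl threshold cut through a continuum. At the Cxcl12 threshold, 10 members lay between 15% and 20%, and 11 cells that met every other condition lay between 10% and 15%. Levels of Lepr, Fzd5 and Cp were 14.8, 61.1 and 135 in those 10, against 225, 125 and 141 in all members. The 11 cells left out had 14.7, 18.7 and 30.5. At the Kitl threshold, the 207 members with 5 or 6 molecules had a level of Lepr of 219 and of Fzd5 of 90.4, and the 176 cells left out with 3 or 4 molecules had 245 and 89.4. Here and below, a level is the sum of a target's molecules over a group of cells per 10000 molecules of all targets outside the rule. Levels are compared between groups for 1 target and not between targets, whose amplicons differ. In all, 2440 cells passed the Cxcl12 and Kitl conditions, of which 53 were left out for Ptprc and 134 for Pecam1 and Kdr.

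Of the markers listed for reticular cells beside the rule's own, Lepr and Cp were present and Adipoq was not measured in practice. Lepr (chr4:101717404-101792258, plus strand) was seen in 2020 members, or 89.7%, and Cp, the gene of the copper carrier ceruloplasmin, in 82.3%. Members held 84.7% of the Lepr and 67.5% of the Cp molecules of the library. Adipoq, the gene of adiponectin, had 1 molecule in a member and 2 molecules before error correction in the entire library, so its target gave next to no counts in any adult cell. A pair of targets of other lineages is given as a background level, since free RNA can enter any well. Srgn, a proteoglycan gene of blood cells, had a level of 21.7 in members against 3924 in cells with at least 5 molecules of Ptprc (Ptprc cells, n = 319, median 87 molecules), and the cartilage collagen gene Col2a1 had 48.6 against 64.3.

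To place the members among other stroma, the comparison cells were split by their leading genes. They comprised 360 cells that passed the Cxcl12 condition with fewer than 5 molecules of Kitl (Cxcl12-high Kitl-low), 316 cells rich in the osteocalcin genes, 399 rich in Col2a1, 116 rich in the fibroblast genes Aspn, Postn and Ccn3, 163 rich in the mural genes Acta2, Tagln and Rgs5, and 833 remaining cells, led by the joint lubricin gene Prg4. These are ranges of a share of molecules and not cell types. The osteocalcin-rich and Col2a1-rich cells were far deeper, with medians of 5384 and 4107 molecules. For that reason the comparison with all other stromal cells is given both for summed molecules and for the mean of each cell's own share. The latter weights every cell alike (cell mean). Comparisons with single groups use summed molecules only, so the deep cells of a group weigh most in them.

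**Figure D1:**
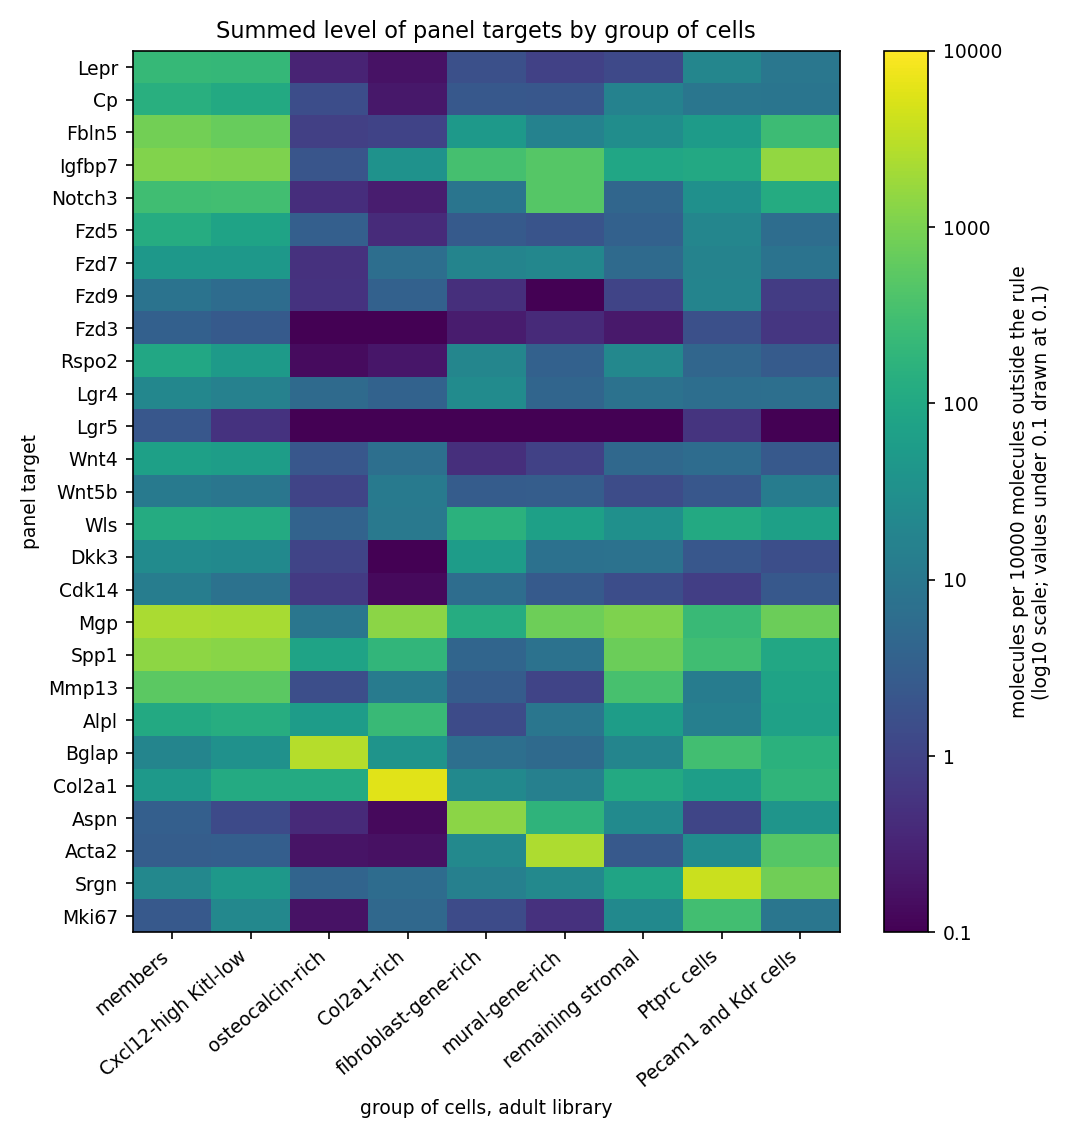
Summed level of 27 panel targets (rows) in the members, the other groups of stromal cells, Ptprc cells and Pecam1 and Kdr cells of the adult library (columns), as molecules per 10000 molecules outside the rule on a log colour scale. The first 2 columns, members and Cxcl12-high Kitl-low cells, look alike, and Lepr, Fzd5, Rspo2 and Wnt4 are high in both and low in the other stromal columns.

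Members differed from the other stromal cells most in Lepr, in the Wnt receptor gene Fzd5, in the R-spondin gene Rspo2, in the elastic fibre gene Fbln5 and in the stem cell marker Lgr5, all higher in members, and in cartilage and osteocalcin genes, which were lower. Of 104 targets with at least 20 molecules in both groups together, 52 were at least 2-fold higher in members by summed molecules (50% of those tested) and 38 were at most 0.5-fold (36.5%), each with a counting interval that left out 1. By cell mean, 25 were higher (24%) and 51 lower (49%), and the median ratio of all targets moved from 1.85 to 0.591, a shift of -1.65 on the log2 scale. All 25 that were higher by cell mean were also higher by sum, 37 were lower on both scales, and 4 (Vwf, Wnt9a, Sema3g and Mecom) were higher by sum and lower by cell mean. With all panel molecules as the denominator, Cxcl12 included, the split was 34 higher and 48 lower, and with molecules before the last error correction it was 45 and 20 (RSEC-adjusted) or 54 and 20 (raw). Dkk1, counted among the 38, had no molecule in members. Directions named below against all other stromal cells hold on both scales unless a sentence says otherwise.

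**Figure D2:**
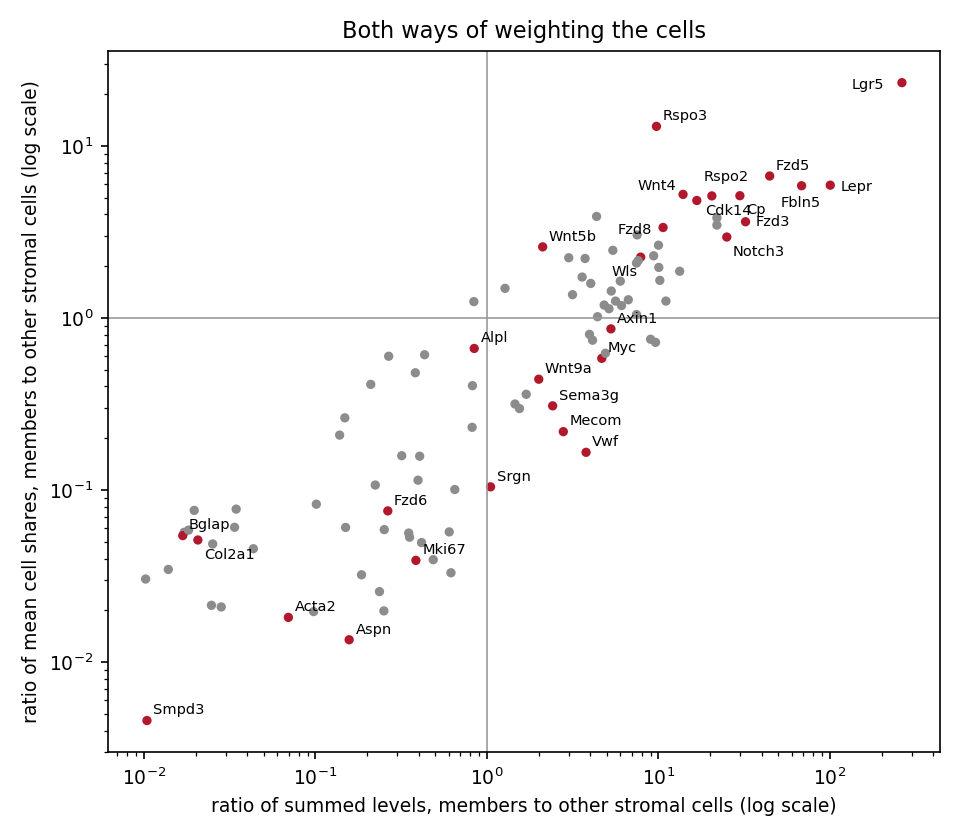
Ratio of members to other stromal cells for each tested target with molecules in both groups, from summed molecules (horizontal, log scale) and from the mean of cell shares (vertical, log scale), with red points named. Lgr5, Lepr, Fzd5 and Fbln5 lie at the upper right on both scales, while Myc, Axin1, Wnt9a, Sema3g, Mecom and Vwf lie to the right of 1 and below 1.

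Against single groups the counts differed, and each is read against the number of targets compared. Of 93 targets, 81 were higher than in osteocalcin-rich cells (87.1%) and 9 lower (9.68%). Of 97, 67 were higher than in Col2a1-rich cells (69.1%) and 21 lower (21.6%). By construction these 2 groups gave much of their total to the genes that define them, with a level of 5953 for Col2a1 and 2755 for Bglap, so every other target has a smaller share there. Of 90, 57 were higher than in mural-gene-rich cells (63.3%) and 18 lower (20%), of 92, 35 were higher than in fibroblast-gene-rich cells (38%) and 22 lower (23.9%), and of 98, 44 were higher than in the remaining cells (44.9%) and 33 lower (33.7%).

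A stricter comparison set the members against every one of the 5 stromal groups other than the Cxcl12-high Kitl-low cells. There, 16 of the 104 targets (15.4%) were at least 2-fold above the next highest group. They included Fzd3, Fzd5, Fzd7, Fzd9, Rspo2, Rspo3, Lgr5, Wnt4 and Cdk14, and also Lepr, Cp, Fbln5, Igfbp7 and Myc. The panel itself holds many such genes, since 40 of the 104 targets are in a list of Wnt components, regulators or target genes. Lepr was 136-fold above the fibroblast-gene-rich cells (66.0 to 339), Fbln5 16.9-fold above them, and Cp 8.63-fold above the remaining cells. Myc, a common Wnt target gene, passed this comparison by a factor of 2.05, but its cell mean ratio to all other stromal cells was 0.583, and its level of 664 in Ptprc cells was above the 50.4 of members.

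Frizzled receptors were mostly higher in members. Of 8 measured, 7 were higher by sum and 6 by cell mean, against 50% and 24% of all targets tested, and Fzd6 was lower on both. The median ratio of the list was 10.03 by sum and 3.004 by cell mean, where that of all targets was 1.85 and 0.591. Fzd5 (chr1:64730558-64737751, minus strand) had a level of 125 in members (122 to 129) and 79.8 in Cxcl12-high Kitl-low cells, whereas the 5 other stromal groups lay between 0.413 and 3.51. Members thus held 72.7% of all Fzd5 molecules of the library, and the ratio to the other stromal cells was 44.6 by sum and 6.69 by cell mean. Ptprc cells had a level of 19.5, between those of the members and of the other stroma.

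Fzd7 was seen in 48.0% of members at a level of 45.5, near the 45.7 of Cxcl12-high Kitl-low cells. It was 2.21-fold (1.88 to 2.62) above the mural-gene-rich cells, the highest of the 5 other stromal groups. Fzd9 had a level of 8.02 and Fzd3 of 3.48, and Ptprc cells, at 18.1, had more Fzd9 than the members. Fzd2 and Fzd8 were sparse, with 88 and 61 molecules in members, and were 7.62-fold and 10.6-fold higher by sum. Fzd4 had 49 molecules, and its cell mean ratio of 1.97 just missed 2. Fzd6 had 8 molecules in the 2253 members, against a level of 62.9 in the Pecam1 and Kdr cells (n = 1838). Within the members Fzd6 was thus close to undetected.

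R-spondins and their receptors followed. Of 5 targets of this axis that could be compared, 4 were higher on both scales (against 25 of all 104 targets) and Rspo4, which peaked in Col2a1-rich cells, was lower. Rspo2 (chr15:43020797-43170818, minus strand) was seen in 50.4% of members at a level of 101 (97.4 to 104). It was 20.5-fold higher than in other stromal cells by sum and 5.12-fold by cell mean. Cxcl12-high Kitl-low cells came next at 52.3, followed by the remaining cells at 21.8. Rspo3 rested on 15 molecules in members and 18 in the comparison. Rspo1, with 3 molecules in members, was too rare to compare.

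Lgr5 (chr10:115450311-115587780, minus strand), a Wnt target gene and R-spondin receptor known from epithelial stem cells, was rare but nearly restricted to these cells within the stroma. The 90 molecules in members fell on 67 cells, or 2.97%, and 65 of those 67 cells also had Lepr. The other 2187 stromal cells had 4 molecules, of which 2 lay in Cxcl12-high Kitl-low cells. Members held 90 of the 120 molecules of the library. The ratio by sum was 263 (99.3 to 986) with the molecules used here and 9.66 with RSEC-adjusted molecules, so its size depended strongly on the error correction. Lgr4, its broadly expressed relative, was seen in 27.4% of members and had a ratio of 3.74 by sum and 2.22 by cell mean, but fibroblast-gene-rich cells had a level of 26.2 against 20.2 in members.

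Among Wnt ligands, Wnt4 stood apart. Of 10 ligands compared, 5 were higher by sum and 1 lower, but by cell mean 2 were higher (Wnt4 and Wnt5b) and 5 lower. The list's median ratio was 1.41 by sum and 0.526 by cell mean, close to the median of all targets on each scale. Wnt4 (chr4:137277489-137299726, plus strand), a ligand with a known role in skeletal and kidney tissue, was seen in 56.8% of members at a level of 69.0 (66.4 to 71.6). Cxcl12-high Kitl-low cells were near it, at 60.0. Wnt4 in members was 10.2-fold (9.50 to 10.9) above Col2a1-rich cells, the highest of the 5 other stromal groups. The fibroblast-gene-rich and mural-gene-rich cells had levels of 0.471 and 0.917. Members held 52.4% of the Wnt4 molecules of the library.

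Wnt5b reached a level of 11.2 in members, but Col2a1-rich cells had 11.6 and Pecam1 and Kdr cells 12.4, and the ratio fell to 0.813 with all panel molecules as the denominator. Ligands of the fibroblast-gene-rich cells were low in members: Wnt11 had a level of 3.30 against 57.3, Wnt9a 2.27 against 43.4 and Wnt2 0.490 against 53.5. The 19 molecules of Wnt2 lay in 2 member cells. Wnt5a had 61 molecules, with a ratio of 3.16 by sum and 1.37 by cell mean. Wls, required for the release of Wnt proteins, was seen in 82.2% of members at a level of 120 (116 to 123), which was 7.88-fold higher by sum and 2.26-fold by cell mean than in other stroma. Fibroblast-gene-rich cells had 154 and Ptprc cells 108, so Wls was not particular to reticular cells.

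Secreted inhibitors were represented by 3 targets. Dkk3 had a level of 25.5 in members and was 9.38-fold higher by sum and 2.30-fold by cell mean, with fibroblast-gene-rich cells higher still at 57.5. Dkk1, a strong inhibitor of Lrp co-receptors, had no molecule in any member, against 64 in the other stromal cells, 62 of them in osteocalcin-rich cells. A count of 0 allows up to 3 molecules, so Dkk1 was at least 1.82-fold lower in members than in all other stroma and at least 4.50-fold lower than in the osteocalcin-rich cells. Dkk2 had 1 molecule.

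Within the cell, dishevelled and destruction complex genes gave no difference that held on both scales. Dvl1, Dvl2, Axin1 and Apc were 5.15-fold to 6.68-fold higher by sum, and their cell mean ratios ranged from 0.865 to 1.43. Levels of all 4 were higher in Ptprc cells than in members, for Dvl1 96.0 against 30.3. The same held for Ccny, with a cell mean ratio of 1.02, whereas its kinase partner Cdk14, which phosphorylates the co-receptor Lrp6, was 16.8-fold higher by sum and 4.82-fold by cell mean. Cdk14 had a level of 12.9 in members and 0.850 in Ptprc cells. Of the common Wnt target genes, Ccnd1 (cyclin D1) was lower, at 1.42 against 6.36, a ratio of 0.223 that became 0.849 with RSEC-adjusted molecules. Lef1 had 48 molecules with ratios of 1.46 by sum and 0.316 by cell mean.

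**Figure D3:**
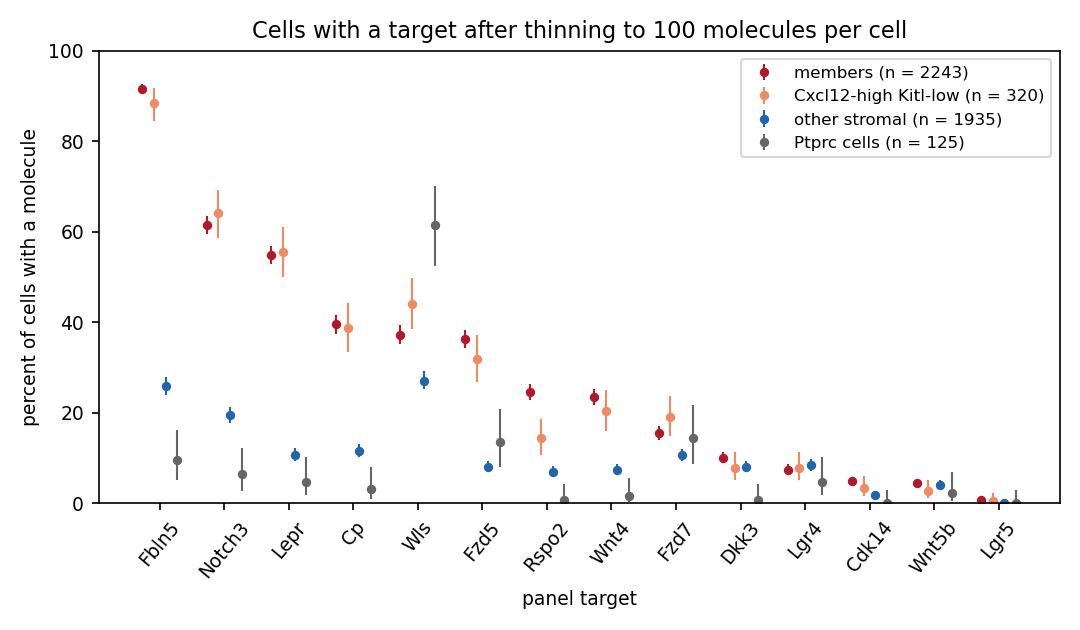
Share of cells with at least 1 molecule of 14 targets after each cell was thinned to 100 molecules, with 95% exact binomial intervals, for members, Cxcl12-high Kitl-low cells, all other stromal cells (which include the latter) and Ptprc cells. Members lie above other stromal cells for Fbln5, Notch3, Lepr, Cp, Fzd5, Rspo2 and Wnt4, and the intervals overlap for Lgr4 and Wnt5b.

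Because depth differed, shares of cells were also compared after thinning to 100 molecules, which left out 10 members, 252 other stromal cells and 194 Ptprc cells. Lepr was then seen in 54.9% of members (52.8 to 57.0), 10.7% of other stromal cells (9.40 to 12.2) and 4.80% of Ptprc cells, given here as a background level. Free RNA, mixed wells and the Ptprc cells' own transcripts were not separated in that share. Fzd5 was seen in 36.3%, 8.11% and 13.6%, so the share in other stroma was below that of Ptprc cells. Rspo2 gave 24.5%, 6.98% and 0.800%, and Wnt4 gave 23.5%, 7.44% and 1.60%. All 4 were thus seen in a larger share of members than of either other group. The other stromal cells include 320 Cxcl12-high Kitl-low cells, with 55.6% for Lepr, 31.9% for Fzd5, 14.4% for Rspo2 and 20.3% for Wnt4. Of the other stromal cells with the target, these were 178 of 208 for Lepr and 102 of 157 for Fzd5. For Rspo2 they were 46 of 135, and for Wnt4 65 of 144.

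For Lgr4 the share was 7.45% in members and 8.37% in other stroma, and for Wnt5b 4.46% and 4.08%, so no difference was detectable in these 2 at this depth. Cxcl12 takes at least 15% of a member's molecules by definition, which leaves fewer for other targets. When each cell was thinned to 50 molecules outside the rule, an alternative added after the data were seen, the Lgr4 share was 12.03% in members and 5% in other stroma, and that of Wnt5b was 6.52% and 2.40%. With 50 molecules of all targets, the Lgr4 share was 4.17% in members and 4.60% in other stroma. The order of Lgr4 thus differed between the thinnings, which also kept different cells. For Wls, Ptprc cells had the largest share, 61.6% against 37.3% of members.

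Beyond Wnt signalling, single genes of matrix and vessel wall went in both directions. Mgp, an inhibitor of calcification, had a level of 2302 in members and was 3.001-fold higher by sum and 2.24-fold by cell mean. Fbln5 was 68.4-fold and 5.87-fold higher, and the secreted growth factor binding protein gene Igfbp7 21.9-fold and 3.47-fold. Igfbp7 was higher still in Pecam1 and Kdr cells, at 1553 against 1137. Notch3, a receptor typical of mural cells, was seen in 92.1% of members at a level of 293, below the 475 of mural-gene-rich cells. The contractile genes of those cells did not go with it: Acta2 had a level of 2.94 in members against 2462.

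Bone genes were divided. Of 7 osteoblast markers, Spp1 (osteopontin) and Mmp13 (a collagenase) were higher on both scales, by 5.42-fold and 2.47-fold for Spp1 and 7.45-fold and 2.08-fold for Mmp13. Alpl and the parathyroid hormone receptor gene Pth1r stayed within 2-fold of all other stromal cells on both scales, but not of each group. By sum, both were lower than in Col2a1-rich cells (0.449-fold and 0.385-fold). Both were higher than in mural-gene-rich cells (11.7-fold and 9.68-fold) and fibroblast-gene-rich cells (76.7-fold and 13.0-fold). They were at 1.84-fold and 3.01-fold of osteocalcin-rich cells, and at 1.78-fold and 3.68-fold of the remaining cells. Against all other stromal cells, Bglap and Bglap2, the osteocalcin genes of mature osteoblasts, were at 0.0168-fold and 0.0172-fold. The third gene, Bglap3, was seen in 98.6% of members at a level of 385, under the 861 of Ptprc cells, and had ratios of 0.267 by sum and 0.599 by cell mean. Its molecules outnumbered those of Bglap by 20.8 to 1 in members, 27.7 to 1 in fibroblast-gene-rich cells and 26.4 to 1 in mural-gene-rich cells. The same ratio was 12.1 in Cxcl12-high Kitl-low cells, 7.70 in the remaining cells and 4.87 in Col2a1-rich cells. It was 1.23 in osteocalcin-rich cells and 2.82 in Ptprc cells. For Bglap2 against Bglap, the ratio was 1.11 in members, 1.09 in osteocalcin-rich cells and 1.11 in Ptprc cells. These genes are near-identical copies, so reads assigned to Bglap3 are uncertain, and the part of free RNA in its level was not tested.

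The 12 lowest ratios belonged to cartilage, joint and osteocalcin genes together with Dkk1 and Smpd3. All 4 chondrocyte markers were lower, from the collagen gene Col2a1 (48.6 against 2356) to the proteoglycan gene Acan (2.09 against 151). With RSEC-adjusted molecules the ratio of Acan was 0.247 and that of Col10a1 0.566, the latter no longer past 0.5, against 0.0139 and 0.0196 with the molecules used here. The 9 further cartilage and joint targets, a list drawn up after the panel was seen, were lower too, with a median ratio of 0.0282, among them Scrg1 with 6 molecules and Epyc with 26. The Col2a1 to Acan ratio was 23.2 in members and 15.8 in Col2a1-rich cells. Cell cycle genes were lower than in all other stromal cells on both scales, but not lower than in each group. Mki67 was seen in 1.86% of members, and the 3 cell cycle targets summed to a level of 7.92 against 20.6 in other stroma and 1163 in Ptprc cells. The sum was lower in osteocalcin-rich (0.759), mural-gene-rich (1.05) and fibroblast-gene-rich cells (3.06) than in members, and higher in Col2a1-rich cells (18.49). Mki67 alone had a level of 23.6 in the remaining cells and 21.1 in Cxcl12-high Kitl-low cells. Endothelial markers showed no gain that held on both scales: 6 of 8 were higher by sum and none by cell mean, and 131 members had a molecule of Pecam1 or Kdr. Of 4 haematopoietic markers, Hlf and Mecom were higher by sum and none by cell mean.

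The Cxcl12-high Kitl-low cells were the nearest neighbours of the members. Of 89 targets compared, 3 were at least 2-fold higher in members (3.37%) and 13 lower (14.6%). Lepr had a level of 225 in members and 213 in these cells, Notch3 293 and 301, Fzd7 45.5 and 45.7, and Mgp 2302 and 2171. Fzd5 was 125 against 79.8 and Rspo2 101 against 52.3, short of the 2-fold threshold. The 3 higher targets were Lgr5 (4.396-fold, 1.18 to 36.9), Aspn and Ccn3, and 140 of the 194 Ccn3 molecules of members lay in 1 cell. Among the 13 lower targets were the cell cycle genes Top2a, Cdk1, Ccne1 and Mki67, the last at 2.53 against 21.1. Each had only 64 to 93 molecules in the Kitl-low cells, and their spread over those cells was not tested. The blood and osteoclast markers Srgn (21.7 against 45.7), Mmp9 (0.877 against 6.87) and Acp5 (2.04 against 5.02) were lower too. Prg4 was also among the 13 (44.2 against 412), but 1320 of the 1561 Prg4 molecules of the Kitl-low cells lay in 1 cell. Prg4 was seen in 31.6% of members and 28.9% of the Kitl-low cells. The Kitl-low cells had a median of 207.5 molecules against 401, and the part of depth in the Kitl condition was not tested.

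**Figure D4:**
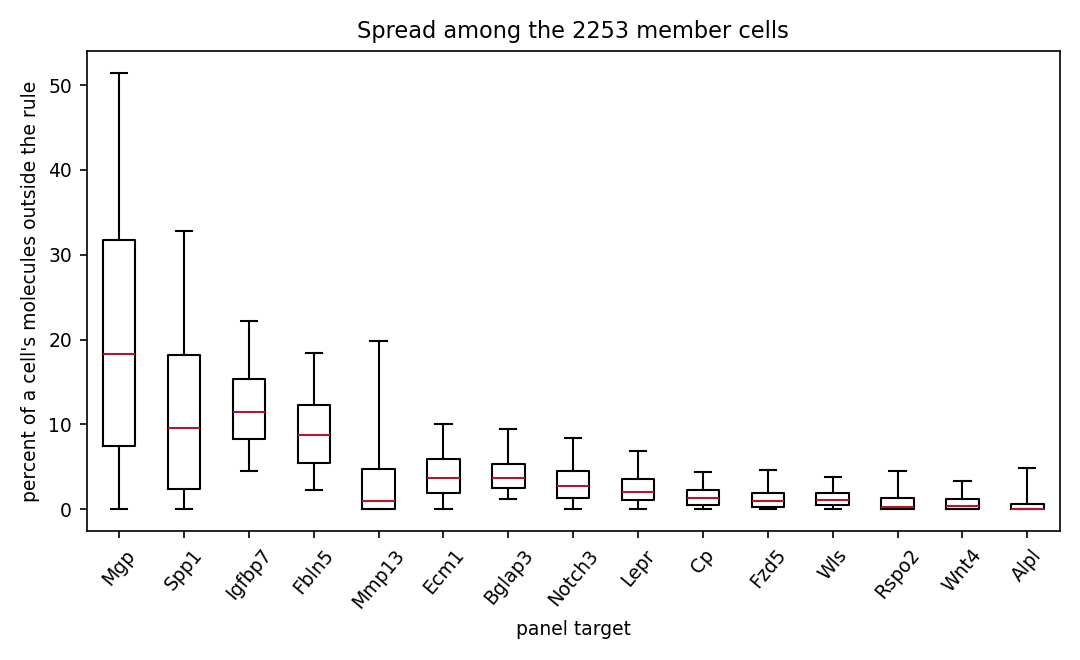
Percent of a cell's molecules outside the rule that came from each of 15 targets in the 2253 members. Boxes span the quartiles with the median in red, and whiskers run from the 5th to the 95th percentile of cells. Igfbp7 and Fbln5 are above 0 in nearly every member, whereas the boxes of Mmp13 and Alpl start at 0 with long upper whiskers.

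Among themselves the members shared some targets evenly and differed widely in others. Igfbp7 and Fbln5 were seen in 99.8% and 99.2% of members, and the 10% of cells with the most molecules held 25.8% and 26.3% of the total. As a share of a cell's molecules outside the rule, Mgp ranged from 0 at the 5th percentile of cells to 51.5% at the 95th. The median was 18.3%. Mmp13 was seen in 61.8% of members, and the top 10% held 69.3% of its molecules. Alpl, an early osteoblast gene, was seen in 32.0% of members, with 81.5% of its molecules in the top 10%. Across the 2253 cells, Spearman's rho between cell shares was -0.46 for Mgp and Fbln5 and 0.29 for Igfbp7 and Fbln5. These cells share 1 library, and the shares of a cell sum to a fixed total, so a high Mgp share lowers the others.

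The members with the largest Mmp13 shares, 564 cells chosen for that and holding 87.4% of Mmp13 molecules, differed from the others in some bone genes and not in others. Levels in this comparison leave Mmp13 out of the total, which makes each ratio larger than with Mmp13 kept in. Alpl had a level of 227 in these 564 cells against 75.8 in the other 1689 members (2.99-fold, 2.82 to 3.18). The periosteal matrix gene Postn had 16.5 against 1.66, but it was seen in only 48 of all members (2.13%). Spp1 was at 1.08-fold, Bglap at 0.898-fold, Bglap2 at 1.12-fold and Bglap3 at 0.993-fold. Lgr5 was 1.498-fold (0.937 to 2.35), with an interval that includes 1, and Rspo2 and Wnt4 were 1.44-fold and 1.32-fold. Mki67 was lower, at 0.632 against 3.40, but 31 of its 98 molecules in members lay in 1 cell. The median depth was 435 molecules in these cells and 395 in the others. Depth moved with several levels over all members, here with Mmp13 in the total. From the 564 shallowest to the 563 deepest cells Mmp13 went from 410 to 722 and Lepr from 267 to 186. Their part in the differences between members was not tested.

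Wnt components often occurred in the same member. Of the 1135 members with Rspo2, 81.5% also had Fzd5, against 75.5% of all members, and 90.7% had Lepr, against 89.7%. Of the 1279 with Wnt4, 85.4% had Wls, against 82.2% of all members, and 78.0% had Fzd5. These overlaps lay near the shares of the single targets.

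The E18.5 libraries held almost no cell of this kind. In E18.5 EC none of 4043 cells met the rule, which allows a share of up to 0.0742%, and only 60 were stromal. In E18.5 BM cells 5 of 12884 met it, or 0.0388% (0.0126% to 0.0905%), and 8 of 1976 stromal cells reached the Cxcl12 condition. Shallower cells reach 5 molecules of Kitl less easily, so all libraries were also thinned to 100 molecules with Kitl at 2. Then 4 of 6201 embryonic marrow cells met the rule, against 2172 of 6104 adult cells.

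The 5 embryonic cells had 1074 molecules, of which 395 were Cxcl12, 187 Mmp13, 113 Spp1, 49 Mgp and 27 Notch3. Lepr had 4 molecules in 3 of them, Rspo2 had 9 and Fzd5 had 5. Lepr was seen in 3.64% of the 1976 stromal cells of embryonic marrow, at a median of 160 molecules, and in 54.3% of the 4440 adult stromal cells, at a median of 429. No level was compared between stages, since each library is a single preparation.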

How the data were processed

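Targeted single-cell RNA sequencing (BD Rhapsody) counted transcripts of a custom panel in 3 libraries, 1 per group. Per the file headers, the authors processed reads with the BD Targeted Rhapsody Analysis Pipeline 1.8 and deposited counts of reads and of molecules per cell and amplicon, in raw form and at 2 stages of correction, RSEC (which merges identifiers that differ by a sequencing error) and then DBEC (which also drops molecules with unusually few reads), with no normalization. The labels name the build mm10. DBEC-adjusted counts were used, 35.9% of raw molecules in Adult BM cells. Amplicons were summed per symbol. The adult file listed 119 symbols, and all 119 transcripts matched the GRCm38 annotation used for coordinates with the same version.

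A level is molecules per 10000 molecules of targets other than Cxcl12, Kitl, Ptprc, Pecam1 and Kdr. Where members were split by their Mmp13 share, Mmp13 was left out of the total as well. Ratios of summed levels carry 95% exact conditional intervals, levels exact Poisson intervals and shares exact Clopper-Pearson intervals. A target was compared with at least 20 molecules in both groups together, and counted as higher or lower at a ratio of 2 or more or 0.5 or less with an interval without 1 (cell means have no interval). Comparison groups were set at 20% of a cell's molecules. No doublet caller was run. Members and lists were chosen with earlier results of these data known. Named targets are the markers, the 12 highest and 12 lowest ratios, Wnt pathway targets with at least 20 molecules in members and the 8 with the most molecules, and a few others were chosen after their values were seen. Ratios were tested on simulated data. Python 3.11.15, numpy 2.4.6, pandas 2.3.3, scipy 1.17.1 and matplotlib 3.10.9 were used. Some targets are not reported here.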

Additional observations from a re-analysis of the deposited data

How the results depend on the processing

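Of 50 targets followed over 17 alternatives, 45 kept the direction of any called ratio throughout and 5 turned at least once. The size of the ratios was less stable than their direction. Over all targets and alternatives, 427 ratios stayed within the main counting interval, 414 left it without a called direction turning, and 9 turned. Targets past the fold fell to 20 lower with RSEC-adjusted and 20 with raw molecules, and higher ones fell to 34 with all panel molecules as the denominator, 25 with the mean of cell shares and 29 with that mean and without Cxcl12-high Kitl-low cells, a combination chosen after the data were seen. With all panel molecules, the ratio was 0.813 for Wnt5b and 0.771 for Wnt9a. With the mean of cell shares it was 0.865 for Axin1, 0.583 for Myc and 0.441 for Wnt9a, and without Cxcl12-high Kitl-low cells as well 0.847, 0.547 and 0.419, with Ccny at 0.927. The cause was not tested beyond the weights themselves. The number of members ranged from 1808 (Kitl at 10 molecules) to 2522 (Kitl at 2), with 1863 where Kitl was taken from 1 amplicon, 2264 and 2235 with Cxcl12 at 10% and 25%, and 2243 with a minimum of 100 molecules. Leaving out members with any Pecam1 or Kdr molecule or the deepest 5% gave 51 or 52 higher and 38 or 36 lower targets. Thinned to 50 molecules, Lepr was seen in 34.8% of members, Fzd5 in 21.0%, Rspo2 in 14.3% and Wnt4 in 12.1%, and with 50 molecules outside the rule in 66.8%, 44.6%, 29.4% and 29.995%. Cuts of 10% and 30% for the comparison groups left their counts within 1.5 times. No paired analysis was possible because each group is 1 library. Depth limits the rare targets most: Lgr5, Rspo3, Fzd2, Fzd4 and Fzd8 had under 100 molecules each in members.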
